A study of Mus musculus with 33 samples.

Results

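Genes of the interferon response and of antigen presentation were followed across the livers of mice given fenofibrate, fish oil or a control diet. The list has 52 genes, chosen by name for their roles: 3 sensors of viral RNA, 5 transcription factors, 24 targets of type I interferon, 7 interferon-inducible GTPases, 3 immunoproteasome subunits, 3 genes of peptide loading, 3 of class I and 4 of class II antigen presentation. Their probe sets were found by gene symbol in the platform annotation, where 49 of the 52 had a probe set of their own, 90 probe sets in all among the 45101 on the array. After a filter on dim probe sets, which kept those with a log2 value of at least 4 on at least 10 of the 33 arrays, 46 of the 52 genes were measured, among 9005 genes in the whole table. A gene with several kept probe sets is given by the one with the highest mean.

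All 33 animals were male C57BL/6J mice, 17 weeks old, and the liver RNA of each was hybridised to 1 Affymetrix GeneChip array. Mice were housed 2 per cage, and the labels do not say which shared a cage. The 12 fenofibrate mice received a diet with sunflower oil at 7% of energy and 0.03% (w/w) fenofibrate, an agonist of PPARα used in patients to lower blood lipids. The 11 fish oil mice received fish oil, rich in long-chain n-3 fatty acids, at 7% of energy in place of the sunflower oil, and the 10 control mice received the sunflower oil diet without the drug. Each diet was given for 2 weeks, and all mice were fasted for some hours before their livers were taken. The question here is how the interferon and antigen presentation genes of the liver stood after the drug and after the oil.

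Interferons are secreted proteins that act through receptors, JAK kinases and STAT factors. Type I signalling leads to a complex with STAT2 and IRF9 that binds the interferon-stimulated response element (ISRE) of target genes, whereas interferon gamma acts at gamma-activated sites (GAS) and induces IRF1, the immunoproteasome and the class I and class II genes. Class I molecules, which present peptides from inside the cell, are made by nearly all cells including hepatocytes. Class II molecules are made mainly by dendritic cells, B cells and macrophages such as the Kupffer cells of the liver.

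Values are log2 expression levels, in which a difference of 1 is a doubling, and differences are given ± SE from limma over all 33 arrays. A gene was called at an adjusted p under 0.05 (Benjamini-Hochberg over the 9005 genes). The arrays had medians between 2.9 and 2.97 (log2), and no array repeated another. Arrays with consecutive label numbers tended to deviate together, with a consensus correlation of 0.23 over 17 such pairs (1 of them reduced to a single array). Adjusted p-values from the model of independent arrays can therefore be too small. Single pairs varied, with correlations from -0.172 to 0.418 over all genes and from -0.635 to 0.600 over the listed genes. Arrays have no read depth, and their number limits the precision. Because each sample is whole liver, fewer cells of a type and less RNA per cell cannot be told apart. The hepatocyte genes that mark the tissue were bright, with a mean log2 level over 10 measured markers between 13.065 and 13.307 on the fenofibrate arrays, 13.278 and 13.470 on the fish oil arrays and 13.184 and 13.444 on the control arrays.

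On fenofibrate, 33 of the 46 measured genes fell relative to control, 0 rose and 13 did not pass the test. Of all 9005 genes, 18.9% fell and 22% rose in the same comparison. The median difference was -0.40 over the 46 genes and -0.002 over all genes tested, and 45 of the 46 differences lay below 0, the exception being Bst2 (0.03 ± 0.07). At an unadjusted p under 0.05, 34 of the 46 were lower and 0 higher, and 4313 of the 9005 genes passed in either direction. For 5 genes, Irf7, Ifih1, Oas1a, Psmb8 and B2m, every fenofibrate array lay below every control array, and for 0 every fenofibrate array lay above them. Over all genes, the shares with no overlap between fenofibrate and control were 1.83% lower and 3.58% higher.

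On fish oil, 15 of the 46 fell relative to control, 0 rose and 31 did not pass, where 7% of all genes fell and 7.53% rose. The median difference was -0.27 over the 46 genes and 0.014 over all genes. At an unadjusted p under 0.05, 25 of the 46 were lower and 0 higher, and 2416 of the 9005 genes passed in either direction. The 2 groups overlapped for every one of the 46, while 0.677% of all genes were lower and 0.378% higher with no overlap. The fenofibrate and fish oil comparisons share the same control arrays. Set side by side, 12 genes were called lower in both, 21 were called lower on fenofibrate and not on fish oil, 3 were called lower on fish oil and not on fenofibrate, and 10 passed in neither.

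Compared directly, fenofibrate livers had lower levels than fish oil livers for 15 of the 46 genes and higher levels for 3, with a median difference of -0.16 against -0.009 over all genes. In this comparison 19.1% of all genes were lower and 19.8% higher, so the share of the 46 that was lower (32.6%) stood above that background and the share that was higher (6.52%) below it. No gene of the list was without overlap between the 2 groups, against 2.25% of all genes lower and 4.09% higher. Of the 21 genes called lower on fenofibrate and not on fish oil, 12 also differed between the diets: Nlrc5, Oasl1, Ifit1, Ifit3, Ifi27, Ifi35, Rsad2, Parp14, Rtp4, Trim25, Psmb10 and B2m. With the random block of consecutive array numbers, Oasl1, Parp14 and Psmb10 lost that call (adjusted p = 0.0690, 0.0663 and 0.0555). For the other 9 of the 21, Ddx58, Dhx58, Irf1, Irf9, Usp18, Xaf1, Ifi47, Irgm1 and Tap2, a difference between the diets was not shown.

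**Figure D1:**
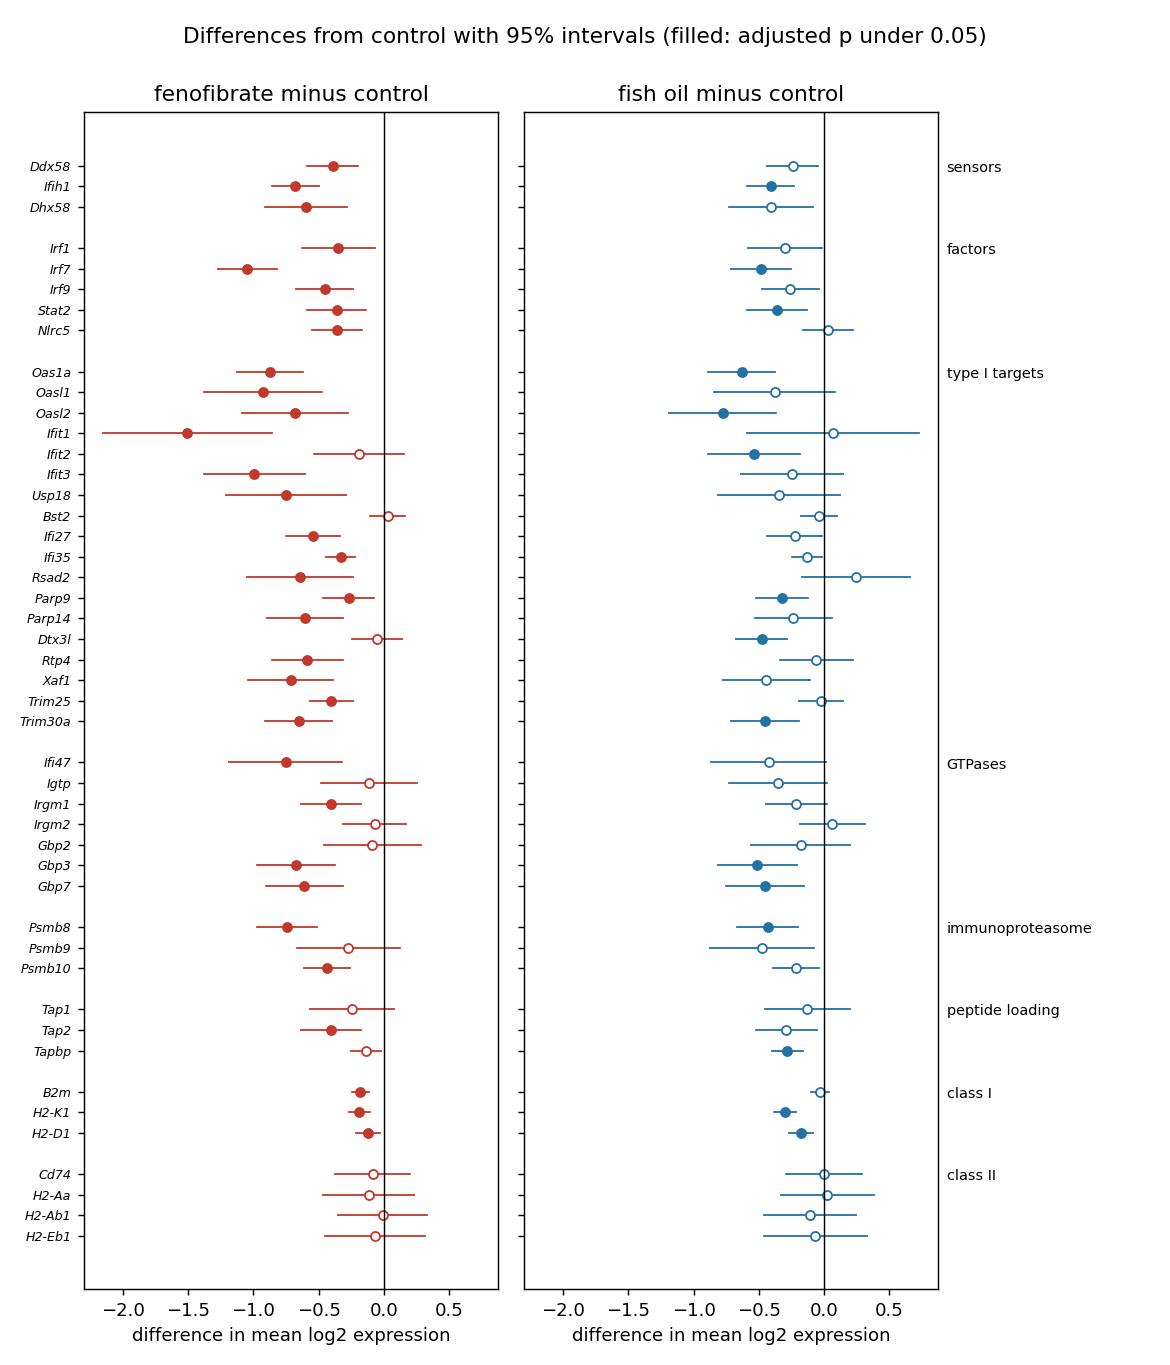
Difference in mean log2 expression from control for the 46 measured genes, by role, with fenofibrate minus control in the left panel and fish oil minus control in the right one. Lines are 95% intervals and filled points passed the test: 33 on fenofibrate and 15 on fish oil, all of them below 0.

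The 3 sensors, RNA helicases that detect viral RNA in the cytoplasm, all fell on fenofibrate. Ifih1 encodes MDA5, which binds long double-stranded RNA. Its level ran from 7.93 to 8.65 (median 8.36) on the fenofibrate arrays, from 8.35 to 8.92 (median 8.51) on the fish oil arrays and from 8.70 to 9.29 (median 8.97) on the control arrays. The fenofibrate and control arrays did not overlap, and the fish oil arrays lay between, reaching into both. The difference from control was -0.68 ± 0.09 on fenofibrate (adjusted p = 1.32e-07) and -0.41 ± 0.09 on fish oil (adjusted p = 0.00142), and fenofibrate was lower than fish oil by -0.27 ± 0.09 (adjusted p = 0.0122).

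Ddx58, which encodes RIG-I, the sensor of RNA with a 5′ triphosphate, fell by 0.39 ± 0.09 on fenofibrate (adjusted p = 0.00112). On fish oil its difference was -0.24 ± 0.10 (adjusted p = 0.0942). Its call on fenofibrate was lost when its probe sets were averaged (adjusted p = 0.115); a dimmer second probe set had a difference of 0.03 ± 0.13. Dhx58, which encodes LGP2, a helicase that modulates the other sensors, fell by 0.60 ± 0.15 on fenofibrate and had a difference of -0.41 ± 0.16 on fish oil (adjusted p = 0.0800). Dhx58 was dim, with 7 of the 12 fenofibrate arrays at a level of 4 or more. Without control replicates 1, 2 and 9, which stood apart in other gene groups of these data, its differences were -0.32 on fenofibrate (adjusted p = 0.0367) and -0.13 on fish oil (adjusted p = 0.538), and with the random block added the fenofibrate call was lost (adjusted p = 0.0565).

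All 5 transcription factors fell on fenofibrate, and 2 of them, Irf7 and Stat2, fell on fish oil. Irf7, the factor that drives and amplifies type I interferon production and is itself an interferon target, ran from 4.30 to 5.07 (median 4.65) on the fenofibrate arrays, from 5.06 to 5.68 (median 5.20) on the fish oil arrays and from 5.19 to 6.41 (median 5.68) on the control arrays. The 3 groups stood in steps: fenofibrate arrays stayed below all control arrays and met the fish oil arrays only at the edge, while fish oil and control arrays overlapped widely. The mean was 2.07-fold lower on fenofibrate than on control (-1.05 ± 0.11, adjusted p = 2.67e-09) and 1.40-fold lower on fish oil (-0.48 ± 0.11, adjusted p = 0.00306). Between the diets, fenofibrate was lower by -0.56 ± 0.11 (adjusted p = 8.45e-05).

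Irf9, the DNA-binding subunit of the type I complex, fell by 0.45 ± 0.11 on fenofibrate (adjusted p = 0.000786) and had a difference of -0.26 ± 0.11 on fish oil (adjusted p = 0.111). Stat2, its partner in that complex, fell by 0.36 ± 0.11 on both diets, with adjusted p = 0.00868 on fenofibrate and 0.0281 on fish oil. Without control replicates 1, 2 and 9, Stat2 lost both calls (adjusted p = 0.0755 on fenofibrate and 0.148 on fish oil). The fish oil call was also lost without fish oil replicate 1 or 7 or control replicate 1 or 5, with an adjusted p up to 0.236 over all settings. Nlrc5, the transactivator of class I genes, averaged 7.28 ± 0.29 on fenofibrate, 7.67 ± 0.17 on fish oil and 7.64 ± 0.18 on control (SD, n = 12, 11 and 10). It fell on fenofibrate (-0.36 ± 0.09) and was lower there than on fish oil (-0.39 ± 0.09, adjusted p = 0.000934). Irf1, a factor of the interferon gamma response, fell by 0.35 ± 0.14 on fenofibrate (adjusted p = 0.0401), a call that was lost in 16 other settings (adjusted p up to 0.0951). In 13 of these a single array was left out: fenofibrate replicate 1, 5, 6, 7, 8, 11 or 12, or control replicate 2, 4, 5, 6, 7 or 8.

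**Figure D2:**
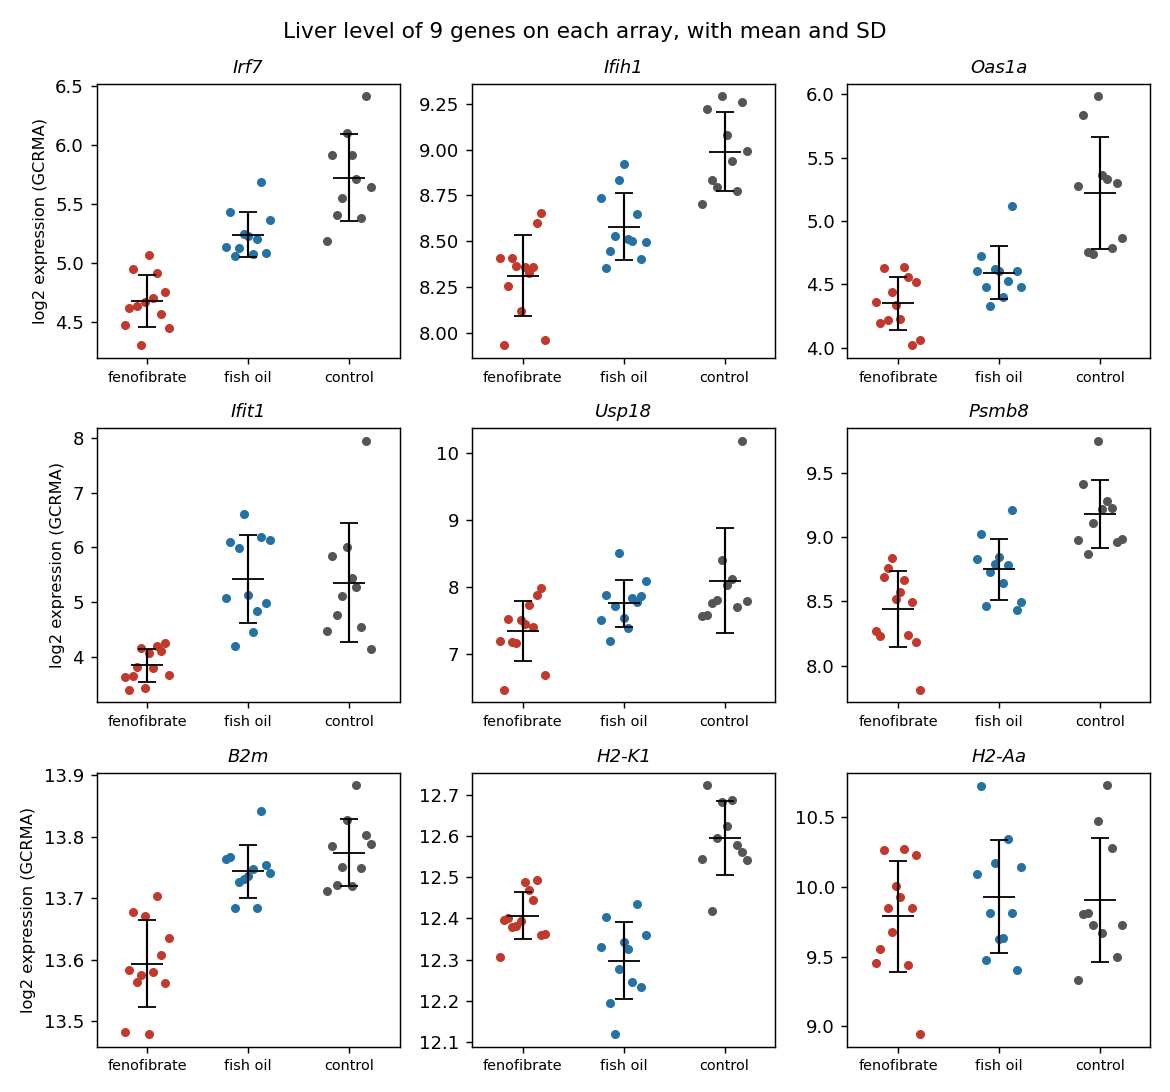
Log2 expression of 9 genes on each of 12 fenofibrate, 11 fish oil and 10 control arrays; points are arrays, and the black mark and bar are the group mean and SD. Irf7, Ifih1, Oas1a, Psmb8 and B2m show no overlap between fenofibrate and control, H2-K1 is lowest on fish oil, and the ranges of the class II gene H2-Aa overlap widely among the 3 groups.

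Of the 24 type I targets, 18 were measured. On fenofibrate 15 of the 18 fell, with a median difference of -0.62, while Ifit2, Bst2 and Dtx3l did not pass. On fish oil 6 of the 18 fell, namely Oas1a, Oasl2, Ifit2, Parp9, Dtx3l and Trim30a, with a median of -0.28. Between the diets 9 were lower on fenofibrate and 1, Dtx3l, was higher.

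The OAS genes make enzymes, or enzyme-like proteins, of the double-stranded RNA response. Oas1a makes 2′-5′ oligoadenylates, which activate RNase L. Its level ran from 4.02 to 4.64 (median 4.35) on the fenofibrate arrays, from 4.33 to 5.12 (median 4.60) on the fish oil arrays and from 4.74 to 5.99 (median 5.28) on the control arrays. No fenofibrate array reached the control range, and the fish oil arrays reached into it. It fell by 0.87 ± 0.12 on fenofibrate (adjusted p = 8.03e-07) and by 0.63 ± 0.13 on fish oil (adjusted p = 0.000562), and the 2 diets differed by -0.24 ± 0.12 (adjusted p = 0.115). Oasl1, which in mice restrains translation of Irf7, fell by 0.93 ± 0.22 on fenofibrate, with a difference of -0.38 ± 0.23 on fish oil (adjusted p = 0.292). Its lower level on fenofibrate than on fish oil (-0.55 ± 0.22, adjusted p = 0.0433) was lost on leaving out any 1 of 12 arrays, fenofibrate replicates 2, 6, 8, 10, 11 and 12 and fish oil replicates 2, 3, 4, 5, 6 and 9 (adjusted p up to 0.0923). Oasl2 fell by 0.68 ± 0.20 on fenofibrate and by 0.78 ± 0.20 on fish oil, and both calls were lost without control replicates 1, 2 and 9 (adjusted p = 0.0617 on fenofibrate and 0.0584 on fish oil).

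The IFIT genes, neighbours on chromosome 19 whose proteins bind viral RNA or, in Ifit2 and Ifit3, take part in the same complexes, had different calls; differences between the genes were not tested. Ifit1 ran from 3.40 to 4.25 (median 3.81) on the fenofibrate arrays, from 4.20 to 6.61 (median 5.13) on the fish oil arrays and from 4.14 to 7.95 (median 5.20) on the control arrays. The fenofibrate arrays were low and close together, while the fish oil and control arrays spread over several doublings with the same centre. Ifit1 was 2.84-fold lower on fenofibrate than on control (-1.51 ± 0.32, adjusted p = 0.000266) and 2.99-fold lower than on fish oil (-1.58 ± 0.31, adjusted p = 0.000118), whereas fish oil and control differed by 0.07 ± 0.32 (95% interval -0.59 to 0.73). Only 5 of the 12 fenofibrate arrays reached a level of 4, so Ifit1 passed the filter through the other groups, and a fold this close to the filter is uncertain.

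Ifit3 fell by 0.99 ± 0.19 on fenofibrate (adjusted p = 7.73e-05) and was lower there than on fish oil by -0.75 ± 0.18 (adjusted p = 0.00157), and its fish oil difference from control was -0.25 ± 0.19 (adjusted p = 0.444). Ifit2 had a difference of -0.19 ± 0.17 on fenofibrate (adjusted p = 0.387) and fell by 0.54 ± 0.17 on fish oil (adjusted p = 0.0323). The Ifit2 call on fish oil was lost in 14 other settings (adjusted p up to 0.108), among them leaving out fish oil replicate 3, 7 or 10 or control replicate 5, 6, 7 or 9, and only 2 of the 11 fish oil arrays reached a level of 4. Ifit1 and Ifit2 had calls against control on different diets, and for Ifit2 the difference between the diets, 0.35 ± 0.17, did not pass (adjusted p = 0.0972).

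Promoter sequences of RefSeq (build GRCm38.p6, from 250 bases before to 50 bases after the start) were at hand for 39 of the 52 genes. The letters GAAANNGAAA, the core of the ISRE, stood on either strand in 18 of the 39 (46.154%), against 3.993% of 27025 genes with a promoter in the table. They were found in 12 of the 25 genes called lower on fenofibrate and in 4 of the 11 measured ones not called. The letters TTCNNNGAA of the GAS stood in 9 of the 39 (23.077%), against 9.554% of all. They stood in 5 of the 25 genes called lower on fenofibrate and in 4 of the 11 measured ones not called. These matches describe letters and do not show binding. Oas1a is shown because its fenofibrate and control arrays did not overlap, and Ifit1 because it had the largest fitted difference of the 46 genes on fenofibrate. The 150 bases before the start are printed in lower case on the gene's strand, 5′ to 3′, with matches in capitals. For Oas1a these are chr5:120907526-120907675, minus strand, with a GAS match and 2 ISRE matches that overlap each other by 4 bases next to the start. For Ifit1 they are chr19:34640739-34640888, plus strand, with 2 ISRE matches, both read on the opposite strand.
Oas1a: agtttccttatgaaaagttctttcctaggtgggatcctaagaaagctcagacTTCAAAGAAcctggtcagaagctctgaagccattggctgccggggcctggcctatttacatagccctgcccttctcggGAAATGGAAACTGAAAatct
Ifit1: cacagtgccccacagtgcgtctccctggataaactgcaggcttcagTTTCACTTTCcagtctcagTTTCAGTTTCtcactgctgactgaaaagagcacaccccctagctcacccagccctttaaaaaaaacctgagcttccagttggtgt
The windows of Irf7 and Ifih1 of the same length held neither set of letters; Ifih1 had an ISRE match after its start, at bases 33 to 42.

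Among the other type I targets, Usp18, the protease that removes ISG15 from proteins and dampens the type I receptor, ran from 6.46 to 7.98 (median 7.42) on the fenofibrate arrays, from 7.19 to 8.51 (median 7.77) on the fish oil arrays and from 7.57 to 10.19 (median 7.80) on the control arrays. The groups overlapped, and the control group held 1 array far above the rest. Usp18 fell by 0.75 ± 0.23 on fenofibrate (adjusted p = 0.00769) and had a difference of -0.34 ± 0.23 on fish oil (adjusted p = 0.354). Without that array, control replicate 9, the differences were -0.52 on fenofibrate (adjusted p = 0.00973) and -0.11 on fish oil (adjusted p = 0.724). The diets differed by -0.41 (adjusted p = 0.144), a difference that passed when the same array was left out (adjusted p = 0.0317).

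Rsad2, which encodes viperin, an enzyme that makes a chain-terminating nucleotide, averaged 5.16 ± 0.29 on fenofibrate, 6.05 ± 0.45 on fish oil and 5.81 ± 0.68 on control (SD). It was lower on fenofibrate than on fish oil by -0.89 ± 0.19 (adjusted p = 0.000405) and lower than on control by -0.64 ± 0.20 (adjusted p = 0.00957), the second call being lost without control replicates 1, 2 and 9 (adjusted p = 0.0518). Trim25, the ubiquitin ligase that helps activate RIG-I, fell by 0.40 ± 0.08 on fenofibrate and differed between the diets by -0.38 ± 0.08 (adjusted p = 0.000241), with a fish oil difference from control of -0.02 ± 0.08. Rtp4, a chaperone of receptors and an inhibitor of viral replication, showed the same order, with -0.59 ± 0.13 against control and -0.53 ± 0.13 against fish oil. The dimmest probe set of Trim25 passed neither of these comparisons (adjusted p = 0.223 and 0.0584), and a second, dim probe set of Rtp4 passed only the one with control (adjusted p = 0.00695, and 0.140 between the diets).

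Xaf1 (-0.71 ± 0.16), Trim30a (-0.65 ± 0.12), Parp14 (-0.60 ± 0.14), Ifi27 (-0.54 ± 0.10), Ifi35 (-0.33 ± 0.05) and Parp9 (-0.27 ± 0.10) also fell on fenofibrate. For Parp14 the difference between the diets (-0.37 ± 0.14, adjusted p = 0.0350) was lost when fenofibrate replicate 1, 2, 10, 11 or 12 was left out, or fish oil replicate 2 or 5, and reached an adjusted p of 0.0721. Without control replicates 1, 2 and 9 the fenofibrate difference of Parp14 was -0.40 (adjusted p = 0.0220). Trim30a, a restrictor of innate signalling in mice, fell on fish oil as well (-0.45 ± 0.13, adjusted p = 0.0135), though not without control replicates 1, 2 and 9 (adjusted p = 0.125). Parp9 lost its call on both diets without those 3 arrays, with differences of -0.08 on fenofibrate and -0.14 on fish oil in place of -0.27 and -0.32. Leaving out control replicate 1, 2 or 9 alone ended its call on fenofibrate, and control replicate 2 or 9 alone that on fish oil (adjusted p up to 0.483 and 0.369 over all settings). Bst2, which encodes tetherin and holds budding virus at the cell surface, was bright and even, at 10.99 ± 0.16 on fenofibrate, 10.92 ± 0.17 on fish oil and 10.96 ± 0.13 on control (SD), and its 95% intervals against control reached from -0.11 to 0.16 on fenofibrate and from -0.17 to 0.10 on fish oil.

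Dtx3l, the ubiquitin ligase that pairs with PARP9, had another pattern. Its level ran from 8.83 to 9.27 (median 9.09) on the fenofibrate arrays, from 8.44 to 8.95 (median 8.57) on the fish oil arrays and from 8.26 to 9.52 (median 9.14) on the control arrays. Fish oil arrays were low and fenofibrate arrays sat with the controls. Dtx3l fell by 0.48 ± 0.10 on fish oil (adjusted p = 0.000591), differed by -0.05 ± 0.09 on fenofibrate (adjusted p = 0.711), and was higher on fenofibrate than on fish oil by 0.43 ± 0.09 (adjusted p = 0.000335). A second probe set of the gene gave the same calls in all 3 comparisons.

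Of the 6 genes of the list without a value, Oas2, Mx1 and Mx2 had probe sets below the filter. Mx2, a dynamin-like antiviral GTPase, had medians of 2.217 on fenofibrate, 2.447 on fish oil and 2.495 on control, and in a fit without the filter it was lower on fenofibrate (-0.33, adjusted p = 0.000395). Mx1, which carries a large deletion in many inbred strains including C57BL/6, had medians of 2.549, 2.693 and 2.776 on fenofibrate, fish oil and control (adjusted p = 0.0644 on fenofibrate), and Oas2 had medians of 3.783, 3.725 and 3.858 in the same order (adjusted p = 0.883). Isg15, Oas1g and Ifi44 had no probe set of their own in the annotation. The probe set that Isg15, the ubiquitin-like modifier, shares with Gm9706 fell by 0.97 ± 0.16 on fenofibrate (adjusted p = 9.79e-06 over all 17162 kept probe sets), with means of 5.201 on fenofibrate and 6.167 on control. On fish oil its mean was 5.705 (-0.46 ± 0.16, adjusted p = 0.0582), and the 2 transcripts cannot be told apart.

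**Figure D3:**
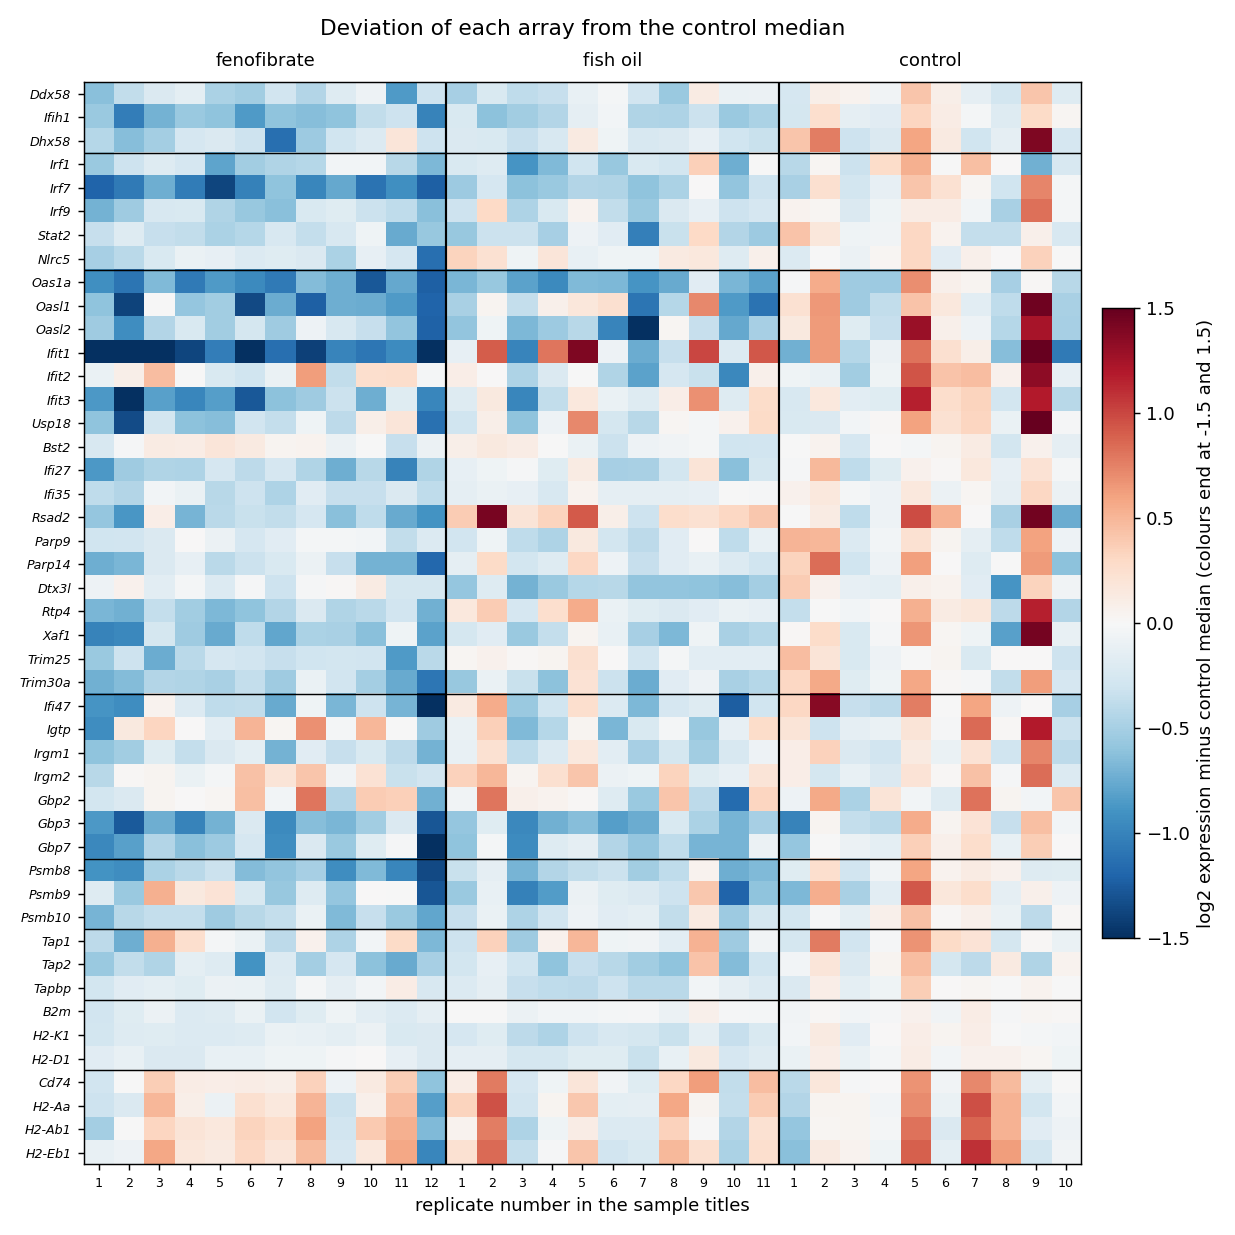
Deviation of each of 33 arrays from the control median for the 46 measured genes, in log2 units, with columns grouped as fenofibrate, fish oil and control and black lines between roles. The type I targets are low across most fenofibrate arrays, control replicates 5 and 9 are high, and the 4 class II genes are high or low on single arrays in each group.

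The 7 GTPases, which act on the membranes of vacuoles that hold pathogens and are induced mainly by interferon gamma, split in their calls. On fenofibrate Ifi47 (-0.75 ± 0.21), Gbp3 (-0.67 ± 0.15), Gbp7 (-0.61 ± 0.14) and Irgm1 (-0.40 ± 0.11) fell. Igtp (-0.11 ± 0.18), Gbp2 (-0.09 ± 0.18) and Irgm2 (-0.07 ± 0.12) did not pass, with 95% intervals that reached down to -0.48, -0.46 and -0.31. On fish oil Gbp3 (-0.51 ± 0.15, adjusted p = 0.0183) and Gbp7 (-0.45 ± 0.15, adjusted p = 0.0346) fell, and 0 of the 7 differed between the diets by limma, also at an unadjusted p under 0.05.

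Gbp3, a guanylate-binding protein, averaged 5.72 ± 0.34 on fenofibrate, 5.88 ± 0.24 on fish oil and 6.39 ± 0.46 on control (SD). Gbp7 averaged 7.34 ± 0.43, 7.50 ± 0.30 and 7.95 ± 0.28 in the same groups. With consecutive array numbers as a random block, both calls on fish oil were lost (adjusted p = 0.0563 and 0.0998), whereas those on fenofibrate held. The Gbp7 call on fish oil was also lost without fish oil replicate 1, 3, 7 or 10 or control replicate 5, 6, 7 or 9, and with its probe sets averaged (adjusted p up to 0.126). Probe sets of one GBP or OAS gene can bind its close relatives. The call of Irgm1, a regulator of the other family members, was lost on fenofibrate without control replicates 1, 2 and 9 (adjusted p = 0.0579), and that of Ifi47 when the random block was added to leaving out those arrays (adjusted p = 0.0564). The ISRE letters stood in the promoters of 6 of the 7 GTPases, Irgm2 and Igtp among them, so genes that passed the test and genes that did not carried the match.

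Psmb8, Psmb9 and Psmb10 encode the catalytic subunits that replace Psmb5, Psmb6 and Psmb7 in the immunoproteasome, whose cleavage favours peptides that class I molecules bind. Psmb8 ran from 7.81 to 8.84 (median 8.51) on the fenofibrate arrays, from 8.43 to 9.21 (median 8.78) on the fish oil arrays and from 8.87 to 9.75 (median 9.16) on the control arrays. Every fenofibrate array lay below the control range, and fish oil arrays overlapped both. Psmb8 fell by 0.74 ± 0.11 on fenofibrate (adjusted p = 2.24e-06) and by 0.43 ± 0.11 on fish oil (adjusted p = 0.00875), and was lower on fenofibrate than on fish oil by -0.31 ± 0.11 (adjusted p = 0.0237, and 0.0502 without fish oil replicate 9).

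Psmb10 fell by 0.44 ± 0.09 on fenofibrate (adjusted p = 0.000107) and had a difference of -0.21 ± 0.09 on fish oil (adjusted p = 0.102). Its difference between the diets (-0.22 ± 0.08, adjusted p = 0.0321) was lost when fenofibrate replicate 1, 9 or 12 was left out, or fish oil replicate 2, 5 or 9, and over all settings its adjusted p reached 0.0732. Psmb9 did not pass on either diet, with -0.27 ± 0.19 on fenofibrate (adjusted p = 0.274) and -0.48 ± 0.20 on fish oil (adjusted p = 0.106), and it was the noisiest of the 3, with a within-group SD of 0.47. The constitutive subunits were higher. Psmb5 rose by 0.46 ± 0.05 on fenofibrate (adjusted p = 9.47e-10) and by 0.14 ± 0.05 on fish oil (adjusted p = 0.0363). Psmb7 rose by 0.20 ± 0.03 and Psmb6 by 0.12 ± 0.04 on fenofibrate, and Psme1, a subunit of the interferon-inducible PA28 activator, rose by 0.27 ± 0.05.

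The window before the start of Psmb8 is shown because its fall was the clearest of the 3; it is chr17:34198045-34198194, plus strand, from RefSeq in build GRCm38.p6, with a GAS match in capitals.
Psmb8: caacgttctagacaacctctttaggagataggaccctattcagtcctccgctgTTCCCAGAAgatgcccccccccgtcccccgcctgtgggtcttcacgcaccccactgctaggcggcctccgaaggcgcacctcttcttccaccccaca
The ISRE letters were in 0 of the 3 immunoproteasome promoters.

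**Figure D4:**
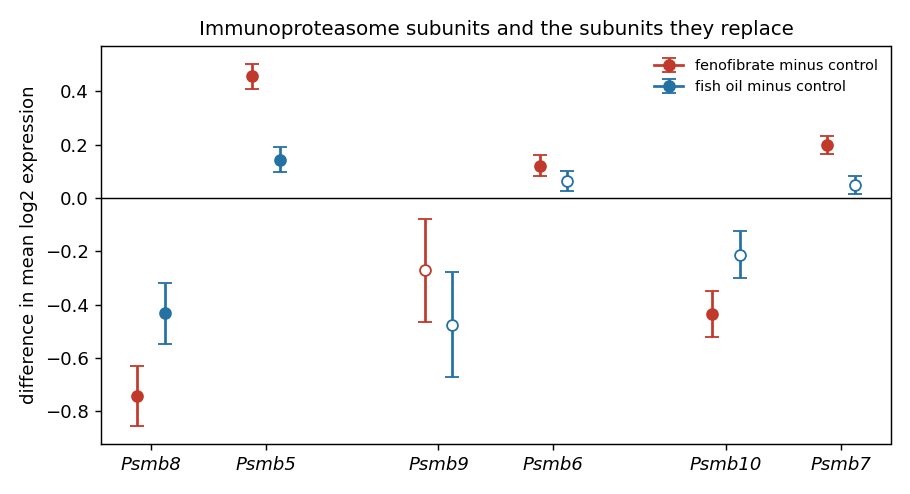
Difference in mean log2 expression from control for the 3 immunoproteasome subunits, each beside the constitutive subunit it replaces, on fenofibrate and fish oil; bars are SE and filled points passed the test. Psmb8 and Psmb10 are below 0 and Psmb5, Psmb6 and Psmb7 above 0 on fenofibrate, where Psmb9 did not pass.

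Tap1 and Tap2 form the transporter that carries peptides into the endoplasmic reticulum, and Tapbp, tapasin, bridges it to class I molecules. Tap2 fell by 0.40 ± 0.11 on fenofibrate (adjusted p = 0.00471), with -0.29 ± 0.12 on fish oil (adjusted p = 0.0950), and Tap1 passed on neither diet (-0.24 ± 0.16 and -0.13 ± 0.16). Tapbp fell on fish oil by 0.28 ± 0.06 (adjusted p = 0.000853) and stood just outside the threshold on fenofibrate (-0.14 ± 0.06, adjusted p = 0.0555). The Tapbp level was higher on fenofibrate than on fish oil by 0.14 ± 0.06 (adjusted p = 0.0380), a call lost in 16 other settings (adjusted p up to 0.103), 11 of which left out a single array: fenofibrate replicate 5, 6, 8, 10 or 11, or any of fish oil replicates 3 to 8. With its probe sets averaged, the fish oil call was lost too (adjusted p = 0.0559).

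The 3 class I genes were the brightest in the list. In their brightest probe sets all 3 fell on fenofibrate by small amounts, while H2-K1 and H2-D1 fell on fish oil. B2m, the light chain of every class I molecule, ran from 13.48 to 13.70 (median 13.58) on the fenofibrate arrays, from 13.69 to 13.84 (median 13.74) on the fish oil arrays and from 13.71 to 13.88 (median 13.77) on the control arrays. Fenofibrate arrays stayed below the control range by a narrow gap, and fish oil and control arrays covered nearly the same range. B2m was 1.13-fold lower on fenofibrate than on control (-0.18 ± 0.03, adjusted p = 3.22e-05) and 1.11-fold lower than on fish oil (adjusted p = 0.000276), and fish oil and control differed by -0.03 ± 0.03 (adjusted p = 0.602).

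H2-K1 and H2-D1 encode the class I heavy chains of this strain. H2-K1 ran from 12.31 to 12.49 (median 12.40) on the fenofibrate arrays, from 12.12 to 12.44 (median 12.33) on the fish oil arrays and from 12.42 to 12.72 (median 12.59) on the control arrays. The fish oil arrays were lowest, and both diets touched the control range only at its low end. H2-K1 fell by 0.30 ± 0.04 on fish oil (adjusted p = 2.21e-06, the smallest of the 46 genes in that comparison) and by 0.19 ± 0.04 on fenofibrate (adjusted p = 0.000260), and was higher on fenofibrate than on fish oil by 0.11 ± 0.04 (adjusted p = 0.0250). That last call was lost with arrays centred on their median, with all probe sets averaged, with the random block and without fish oil replicate 4 (adjusted p up to 0.127). H2-D1 fell by 0.18 ± 0.05 on fish oil (adjusted p = 0.00779) and by 0.12 ± 0.04 on fenofibrate (adjusted p = 0.0313), the second call being lost in 11 other settings (adjusted p up to 0.0952), among them leaving out fenofibrate replicate 3, 4 or 12 or control replicate 2, 5, 7 or 8.

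All 4 kept probe sets of H2-K1 were called lower on both diets, as were all 5 of H2-D1 on fish oil and 3 of 5 on fenofibrate. Their differences varied in size. For H2-K1 they ran from -0.38 to -0.16 on fenofibrate and from -0.52 to -0.21 on fish oil. For H2-D1 they ran from -0.40 to -0.12 on fenofibrate and from -0.39 to -0.16 on fish oil. The largest came from dimmer probe sets. These probe sets can bind transcripts of related class I genes, so values of single heavy chains are uncertain, and a probe set named for both genes fell by 0.31 ± 0.05 on fenofibrate and by 0.35 ± 0.05 on fish oil. The window before the start of B2m is shown because it had the only class I match of the ISRE letters in this set, in capitals; it is chr2:122147537-122147686, plus strand, from RefSeq in build GRCm38.p6.
B2m: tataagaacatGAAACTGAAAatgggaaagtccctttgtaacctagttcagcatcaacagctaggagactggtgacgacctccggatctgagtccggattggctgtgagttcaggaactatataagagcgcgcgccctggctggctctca
Of the 3 class I promoters, 1 held the match.

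The 4 class II genes did not pass on either diet. Cd74 encodes the invariant chain that guides class II molecules, and H2-Aa, H2-Ab1 and H2-Eb1 encode chains of the class II molecules themselves. H2-Aa ran from 8.94 to 10.27 (median 9.85) on the fenofibrate arrays, from 9.41 to 10.73 (median 9.81) on the fish oil arrays and from 9.33 to 10.73 (median 9.77) on the control arrays. The ranges of the 3 groups overlapped widely, with the fenofibrate range reaching lower at both ends. Differences from control were -0.12 ± 0.17 for H2-Aa, -0.09 ± 0.14 for Cd74, -0.07 ± 0.19 for H2-Eb1 and -0.01 ± 0.17 for H2-Ab1 on fenofibrate, and 0.03 ± 0.17, -0.00 ± 0.14, -0.07 ± 0.19 and -0.11 ± 0.17 on fish oil. The 95% intervals reached from -0.46 to 0.38 over the 4 genes and both diets. Each of them contains a fall of 0.19, the size seen in the brightest H2-K1 probe set on fenofibrate. Not all of them contain a fall of 0.40, the size seen in a dimmer H2-D1 probe set on fenofibrate. By limma 0 of the 4 had an unadjusted p under 0.05 on either diet. The within-group SD was 0.340 to 0.460 for class II genes and 0.058 to 0.095 for class I genes.

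The median over the 4 class II genes spread between arrays within each diet. Control replicates 7 and 5 had median deviations from the control median of 0.92 and 0.76 over the 4 genes, fish oil replicate 2 had 0.81, and fenofibrate replicate 12 had -0.74. Fenofibrate replicate 12 was also the lowest array of its group for the type I targets (-0.85) and the immunoproteasome (-1.28). The medians of the type I targets ran from -0.85 to -0.19 on the fenofibrate arrays, from -0.45 to 0.15 on the fish oil arrays and from -0.37 to 0.90 on the control arrays. Control replicate 9 (0.90) and control replicate 5 (0.60) were the highest of all 33; replicate 9 was high for type I targets and GTPases (0.46) and below 0 for the immunoproteasome (-0.20) and class II (-0.22), while replicate 5 was high for all of them.

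**Figure D5:**
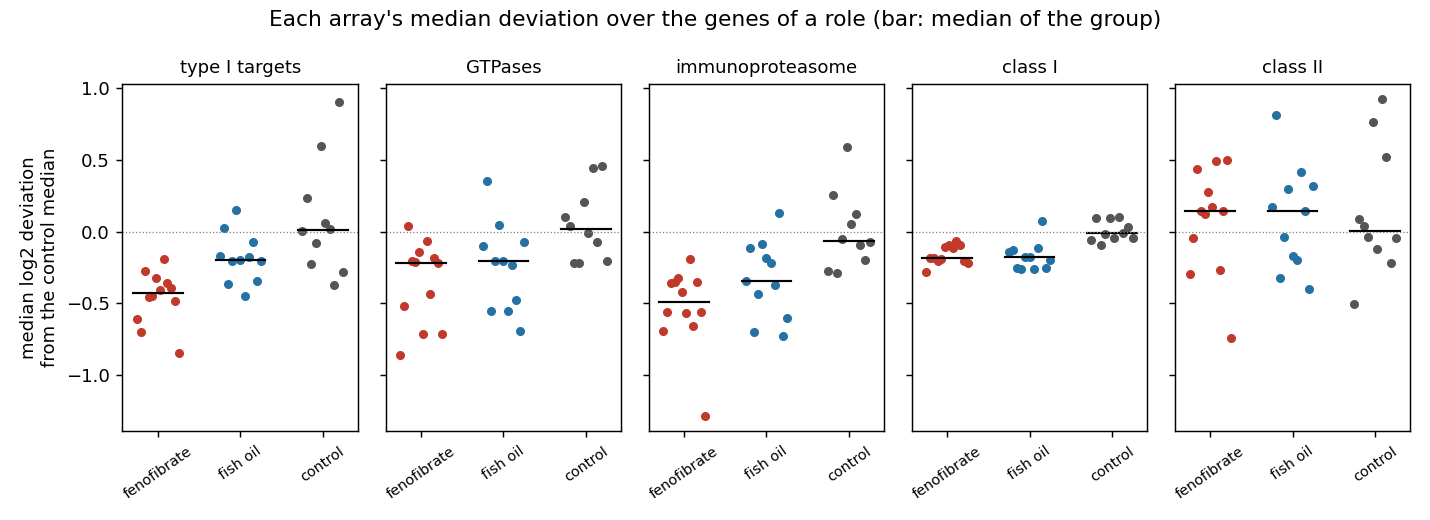
Median log2 deviation from the control median over the genes of 5 roles, for each array of the fenofibrate, fish oil and control groups; black bars are group medians. Fenofibrate arrays lie below 0 for type I targets, immunoproteasome and class I, and the class II medians spread around 0 in all 3 groups.

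Without control replicates 1, 2 and 9, 28 of the 46 genes were lower on fenofibrate, 27 of them among the 33, and 12 were lower on fish oil, 10 of them among the 15. Leaving out each of the 33 arrays in turn, 30 of the 33 fenofibrate calls and 11 of the 15 fish oil calls held every time. With the random block of consecutive array numbers, 31 of the 33 and 10 of the 15 held. Of 18 genes with several kept probe sets, 15, 16 and 12 had the same call from each in the comparisons of fenofibrate with control, fish oil with control and fenofibrate with fish oil.

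Genes of the same pathways outside the list were counted from lists drawn up with earlier results of these data known. Of 50 other interferon targets, 35 were measured, and 19 fell and 0 rose on fenofibrate, with a median of -0.25. On fish oil 10 of the 35 fell and 0 rose. Over all genes, 18.9% fell and 22% rose on fenofibrate, and 7% fell and 7.53% rose on fish oil. Ifitm3, which blocks the entry of enveloped viruses, fell by 0.84 ± 0.06 on fenofibrate (means 12.83 and 13.66) and by 0.30 ± 0.06 on fish oil. Ly6e, a surface protein that limits virus entry, fell by 1.09 ± 0.12 on fenofibrate and by 0.72 ± 0.12 on fish oil, and Shisa5 by 0.55 ± 0.07 and 0.37 ± 0.07. Between the diets 15 of the 35 were lower and 1, Ube2l6, the conjugating enzyme of ISG15, was higher on fenofibrate (0.40 ± 0.08). In that comparison 19.1% of all genes were lower and 19.8% higher.

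Upstream of these targets, calls went both ways. Of 11 measured receptor and signalling genes, 3 rose (27.3%) and 2 fell (18.2%) on fenofibrate, close to the shares over all genes (22% and 18.9%). Differences of the 11 ran from -0.51 to 0.58. Ifnar2, a chain of the type I receptor, rose by 0.17 ± 0.04, and Ifngr2, a chain of the interferon gamma receptor, by 0.58 ± 0.18. The kinase Jak1 fell by 0.20 ± 0.05. On fish oil 1 of the 11 (9.09%), Ifnar2, rose (0.15 ± 0.04) and 0 fell, where 7.53% of all genes rose and 7% fell. Among 4 other measured IRF genes 3 fell on fenofibrate, Irf5 by 1.36 ± 0.18 (means 4.57 and 5.94), Irf2 by 0.43 ± 0.12 and Irf3, the factor that sensors activate, by 0.33 ± 0.05, and 0 of the 4 passed on fish oil by limma, also at an unadjusted p under 0.05. Of 9 measured genes of the sensing pathway, Irf3 among them, 2 (22.2%) fell and 0 rose on fenofibrate, with a median of -0.05. The share that fell was close to that over all genes (18.9%). Ikbke, a kinase of IRF3 and IRF7, fell by 1.10 ± 0.21 on fenofibrate and was lower there than on fish oil (-0.96 ± 0.20). Between the diets 2 of the 9 (22.2%) were lower on fenofibrate, where 19.1% of all genes were.

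Of 17 measured genes from a list of other antigen presentation genes, 6 (35.3%) fell and 2 (11.8%) rose on fenofibrate, where 18.9% of all genes fell and 22% rose. On fish oil 3 (17.6%) fell and 1 (5.88%) rose, where 7% of all genes fell and 7.53% rose. Differences on fish oil ran from -1.02 to 0.21. For 1 of the 17 every fish oil array lay below every control array, as for 0.677% of all genes. Calr (-0.43 ± 0.08), Pdia3 (-0.43 ± 0.09) and Canx (-0.21 ± 0.05), chaperones of the endoplasmic reticulum that fold class I molecules among many other proteins, fell on fenofibrate. Cd1d1, which presents lipids, rose on fenofibrate (0.51 ± 0.05) and on fish oil (0.21 ± 0.06). H2-Q10, a class I gene of the liver whose product is secreted, rose by 0.13 ± 0.03 on fenofibrate and fell by 0.20 ± 0.04 on fish oil, a difference between the diets of 0.32 ± 0.03 (adjusted p = 2.04e-09).

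Markers of the cells that carry class II molecules were set beside these results. Of 14 Kupffer cell markers, all measured, 3 (21.4%) fell on fenofibrate, close to the 18.9% of all genes that fell. These were Clec4f by 0.43 ± 0.10, Cd163 by 0.37 ± 0.13 and Vsig4 by 0.25 ± 0.10. All 14 markers had differences below 0, while 4529 of all 9005 genes did. The log2 of their summed level ran from 13.140 to 13.914 on the fenofibrate arrays, from 13.497 to 14.122 on the fish oil arrays and from 13.574 to 14.121 on the control arrays. On fish oil 0 of the 14 passed by limma, and 1 was higher at an unadjusted p under 0.05. Of 6 general leukocyte markers, 0 passed on fenofibrate (1 lower at an unadjusted p under 0.05), with a median difference of -0.21. On fish oil 1 of the 6 (16.7%), Lcp1, rose (0.24 ± 0.05), where 7.53% of all genes rose. The differences of 5 of the 6 lay below 0 on fish oil, as for 4141 of all 9005 genes, with a median of -0.13. None of 13 T and NK cell markers passed the filter, and 1 of 8 B cell markers did, Ighm, which rose on fenofibrate (0.67 ± 0.25). Of 10 dendritic cell markers 1 passed the filter, with levels of 3.731 to 5.116, 3.764 to 5.014 and 3.991 to 5.556 on the fenofibrate, fish oil and control arrays. The part of these cells in the falls of the interferon genes was not tested.

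Markers of other liver cell types also moved. Over all genes, 18.9% fell and 22% rose on fenofibrate, and 7% fell and 7.53% rose on fish oil. Of 8 measured stellate cell markers 5 fell and 1, Col3a1, rose, and the log2 of their summed level ran from 12.386 to 12.653 on the fenofibrate arrays, from 12.609 to 12.884 on the fish oil arrays and from 12.696 to 12.892 on the control arrays, with no overlap between fenofibrate and control. Rgs5, a pericyte and stellate cell gene, fell by 0.57 ± 0.06. On fish oil 0 of the 8 passed, with 1 lower at an unadjusted p under 0.05. Of 10 sinusoidal endothelial markers 4 fell and 1, Lyve1, rose on fenofibrate. On fish oil 3 of the 10 fell, and all 10 differences lay below 0, while 4141 of all 9005 genes did. The sums for that list ran from 11.888 to 12.121 on the fenofibrate arrays, from 11.895 to 12.117 on the fish oil arrays and from 12.120 to 12.325 on the control arrays. Fish oil and control did not overlap, by a narrow gap, and fenofibrate and control overlapped at the edge. Of 10 measured hepatocyte genes 6 fell on fenofibrate, Ahsg by 0.49 ± 0.04 and Cps1 by 0.45 ± 0.04 among them, and 2 fell on fish oil. The log2 of the summed hepatocyte level ran from 17.433 to 17.553 on the fenofibrate arrays, from 17.546 to 17.652 on the fish oil arrays and from 17.579 to 17.684 on the control arrays, with no overlap between fenofibrate and control. The part of these shifts in the interferon results was not tested either.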

How the data were processed

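Liver RNA of 33 mice was hybridised to 1 Affymetrix GeneChip array each. Log2 values for each probe set were deposited, and GCRMA 2.24.1 is the tool named in the submitters' processing notes. That method corrects background by probe sequence and normalizes by quantiles, so dim differences can be compressed; the values span 0.484 to 15.634. Groups and replicate numbers come from the sample titles. Of 45101 probe sets, 64 controls were dropped, 34945 have a single gene symbol in the platform annotation, 932 have several and 9160 are unnamed here; symbols were brought up to date through RefSeq (GRCm38.p6). The filter kept 17162 probe sets, of which 15203 with 1 gene gave the 9005 genes.

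The 52 genes, the other lists, the markers and the tests were chosen with earlier results of these data known. Named are all 52 genes and, from each other list and comparison, up to 4 called genes with the smallest adjusted p; Col3a1 was named after its values were seen. Comparisons came from 1 limma 3.58.1 model of 3 groups (lmFit, contrasts, eBayes, two-sided; statmod 1.5.0, R 4.3.3). P-values treat mice as independent. Alternatives changed the filter, scaling, choice of probe set, variance model, array weights, blocks and arrays used; the random block together with leaving out control replicates 1, 2 and 9 was added after seeing the data. Same-numbered arrays did not all deviate together (correlations from -0.206 to 0.354), so the numbers do not pair arrays.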

Additional observations from a re-analysis of the deposited data

Results flagged for a closer look

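In the control group, 46 genes were checked for a single array far from the other 9, by the gap to the nearest array over the whole range, and 4 had one; chance alone gives about 1 in 20. Control replicate 9 stood high in 3 of them: Irf9 at 8.879 (next array 8.170), Ifit1 at 7.951 (next 6.017) and Usp18 at 10.192 (next 8.404). Control replicate 8 stood low in Dtx3l at 8.260 (next 8.976). Without control replicate 9 or any other single array, the calls of Irf9, Ifit1 and Usp18 on fenofibrate and of Dtx3l on fish oil held.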

How the results depend on the processing

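Of 6726 values recomputed in other settings, 0 changed sign with a call involved, 145 lost a call, 35 gained one and 9 counts moved by over 1.5 times. With every kept probe set tested on its own, 6282, 1986 and 5926 of 17162 were called for fenofibrate against control, fish oil against control and fenofibrate against fish oil, in place of 3676, 1308 and 3507 of 9005 genes, since more features were tested. With the random block of consecutive array numbers, 845 genes were called on fish oil against control, and together with leaving out control replicates 1, 2 and 9, 9 listed genes were lower on fish oil in place of 15. The count of listed genes higher on fenofibrate than on fish oil was 1 in place of 3 with centred arrays, with averaged probe sets and with the random block, and 1 to 3 when single arrays were left out, with 1 without fish oil replicate 4. The cause was not tested. Leaving out single arrays, the listed genes lower on fenofibrate numbered 30 to 34 and those lower on fish oil 12 to 19, the most without fish oil replicate 9. With the replicate block, 32 were lower on fenofibrate and 16 on fish oil, and 13 were lower and 3 higher on fenofibrate than on fish oil; the block lost the calls of Irf1 on fenofibrate, of Ifit2 on fish oil and of Parp14 and Psmb10 between the diets. Of the calls, 23 of 33 on fenofibrate, 7 of 15 on fish oil and 12 of 18 between the diets held in every setting run. Signal near the filter limits Ifit1, Ifit2, Dhx58 and Oasl2, the only listed genes with arrays below a level of 4 among those measured. Fenofibrate arrays of Oas1a (4.02 to 4.64), Irf7 (4.30 to 5.07) and Tap2 (4.35 to 5.11) lay above that level but near it. The size of their falls is therefore uncertain as well.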
